A study of Mus musculus with 4 samples.

Results

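The receptor chains through which lymphoid cells read interleukins were followed in Beko cells after release from a Notch block. The 10 genes were taken by symbol from the deposited counts of 24391 genes: Il2ra, Il2rb, Il2rg, Il7r, Il4ra, Il9r, Il15ra, Il21r, Il6ra and Il10ra. All 10 symbols were found and all 10 passed the filter on low counts, as part of the 12266 genes tested. Beko is a mouse progenitor T-cell line, derived from a pre-T leukemia, in which Notch signaling is constitutively active. Both groups had been kept for 48 h in DAPT, a γ-secretase inhibitor (GSI) that blocks the cleavage releasing the active Notch fragment. The GSI group was collected at that point (2 libraries), and the washout group was washed free of the inhibitor and cultured for a further 24 h (2 libraries). The dose stands as 10 mg/ml in the labels and as 10 μg/ml in the methods. Release from the inhibitor and the longer culture cannot be told apart in this design, and no cells without GSI treatment were compared here. The growth medium of both groups held serum and insulin, and no interleukin is named among its supplements. Nothing states that replicates came from separate cultures, so p-values measure the spread between these libraries only.

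Cytokine receptors of this class are assembled from separately encoded chains that have no kinase of their own and signal through bound Janus kinases (JAK) and STAT transcription factors. Il2rg encodes the common γ chain, which pairs with a ligand-specific chain to form the receptors for interleukins 2, 4, 7, 9, 15 and 21. Il2rb encodes the β chain shared by the receptors for interleukins 2 and 15, whereas Il2ra (CD25) and Il15ra encode the α chains that raise the affinity for either ligand. Il7r (CD127) encodes the α chain for interleukin 7, on which early thymocytes depend, and it also serves the receptor for thymic stromal lymphopoietin. Il6ra and Il10ra encode the ligand-binding chains for interleukins 6 and 10, which signal with the partner chains encoded by Il6st and Il10rb instead of the common γ chain. In thymocyte development, Il2ra marks the double-negative stages around commitment to the T lineage.

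The libraries held 13716199 to 36364200 counted reads, with the deeper library labelled replicate 1 in both groups. The lymphoid identity of the line could be checked from its markers: 11 of 11 T progenitor markers were detected in every library, with summed levels of 5868 and 6341 CPM in GSI against 6064 and 5913 CPM upon washout. Within this sum Ptcra was called higher and Gata3 lower. By the adjusted p-value alone 3 markers were higher and 4 lower, where 52.5% of all genes tested passed it. CPM are read counts scaled to a common library size, with each library total adjusted by its TMM factor. A count of 3 reads, taken as the limit of detection, corresponded to 0.0881 to 0.223 CPM, which covers counting error only. In bulk RNA, fewer cells expressing a chain and less RNA per cell cannot be told apart.

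The start-site regions of 4 members are shown because they hold the chain that rose upon washout and the only chains with a match to either of the words searched. RefSeq (GRCm38.p6) gave promoter windows, 250 bases before to 50 bases after a start site, for 8 members, with 2 windows for Il15ra and therefore 9 in all. Il2rb and Il10ra had no window. The 250 bases before each start site are printed 5′ to 3′ on the strand of the gene, with capitals marking a match. The word TGGGAA is the core recognized by RBPJ, the DNA-binding partner of Notch, and TTCNNNGAA is the core of STAT sites. Both strands were searched.
Il2ra, chr2:11642542-11642791, plus strand: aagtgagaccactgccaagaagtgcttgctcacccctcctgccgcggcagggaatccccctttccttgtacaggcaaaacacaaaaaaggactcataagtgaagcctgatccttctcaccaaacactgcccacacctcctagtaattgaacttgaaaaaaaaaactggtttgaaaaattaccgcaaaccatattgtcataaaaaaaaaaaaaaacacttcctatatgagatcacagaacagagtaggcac
Il6ra, chr3:89913197-89913446, minus strand: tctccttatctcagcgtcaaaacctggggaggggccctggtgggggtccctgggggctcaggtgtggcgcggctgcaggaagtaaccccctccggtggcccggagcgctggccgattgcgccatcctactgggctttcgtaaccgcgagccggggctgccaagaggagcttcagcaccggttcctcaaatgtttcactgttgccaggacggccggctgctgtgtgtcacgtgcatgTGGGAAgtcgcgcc
Il2rg, chrX:101268256-101268505, minus strand: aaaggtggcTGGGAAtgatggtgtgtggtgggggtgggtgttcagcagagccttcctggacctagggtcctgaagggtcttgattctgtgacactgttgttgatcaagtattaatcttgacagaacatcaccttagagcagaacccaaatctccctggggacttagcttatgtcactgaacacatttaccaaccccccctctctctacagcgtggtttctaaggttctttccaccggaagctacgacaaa
Il7r, chr15:9529877-9530126, minus strand: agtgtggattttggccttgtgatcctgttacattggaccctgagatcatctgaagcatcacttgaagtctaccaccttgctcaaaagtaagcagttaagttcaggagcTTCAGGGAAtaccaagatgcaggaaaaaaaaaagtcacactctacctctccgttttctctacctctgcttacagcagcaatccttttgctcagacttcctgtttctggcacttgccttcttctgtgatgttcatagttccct

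TGGGAA occurred in 2 of the 9 windows of the members, beginning 14 bases before the start site of Il6ra and 241 bases before that of Il2rg. Among all 32851 RefSeq promoter windows of this length, 25.6% held it. TTCNNNGAA occurred in 1 of the 9 windows, that of Il7r at 142 bases before the start site, against 8.30% of all windows. The Il2ra window held neither word. The looser form TGRGAA (R for A or G), which the paper found where RBPJ binding fell upon GSI, was not searched. The printed Il2ra bases hold it on the other strand, as ttctca. Its occurrence in the windows of the other members and its share over all windows were not counted, so this match has nothing to be set against. These are matches of letters in one window per start site and do not show binding or its absence. By ChIP-Seq in Beko cells, the paper reports RBPJ sites at Il2ra of both kinds, those that lost binding upon GSI (dynamic) and those that did not (static). It places dynamic sites mostly away from start sites, where these windows do not reach.

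Upon washout, the α chain of the interleukin 2 receptor rose while 4 other chains, Il2rb, Il4ra, Il21r and Il6ra, fell. Counts of washout and GSI were compared by edgeR's quasi-likelihood test over all genes, and a gene was called at a Benjamini-Hochberg adjusted p-value under 0.05 together with a log2 fold change above 1 or below -1. With 5 of the 10 chains called, the share was 50%, against 19.5% of all genes tested. Of all genes tested, 7.74% were called higher and 11.7% lower, against 1 and 4 of the 10 chains. By the adjusted p-value alone, 8 chains passed (2 higher and 6 lower), where 52.5% of all genes tested did so. The libraries of the groups did not overlap for 8 chains, and for 77.3% of all genes tested. The median log2 fold change of the 10 chains was -0.57, and that of all genes tested was -0.0096. The chains were not chosen at random, so these shares describe them and carry no test.

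**Figure D1:**
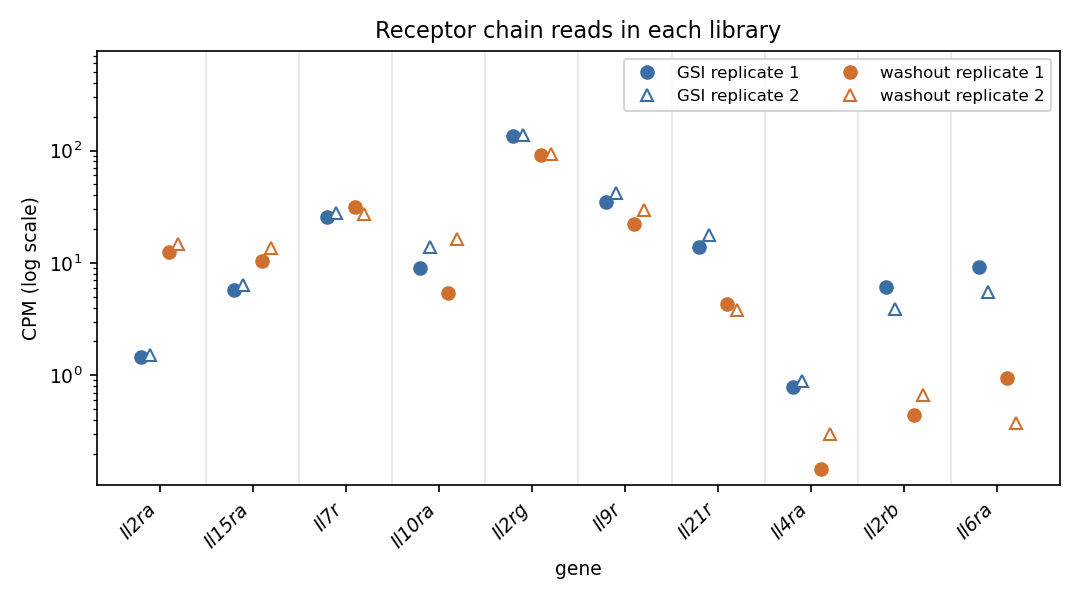
CPM (log scale) of each receptor chain in the 4 libraries, with GSI in blue and washout in orange, replicate 1 as filled circles and replicate 2 as open triangles, and genes ordered by log2 fold change. Il2ra is the chain with the largest rise, from below 2 CPM in GSI to above 12 upon washout, and the symbols of Il7r and Il10ra overlap between groups.

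**Figure D2:**
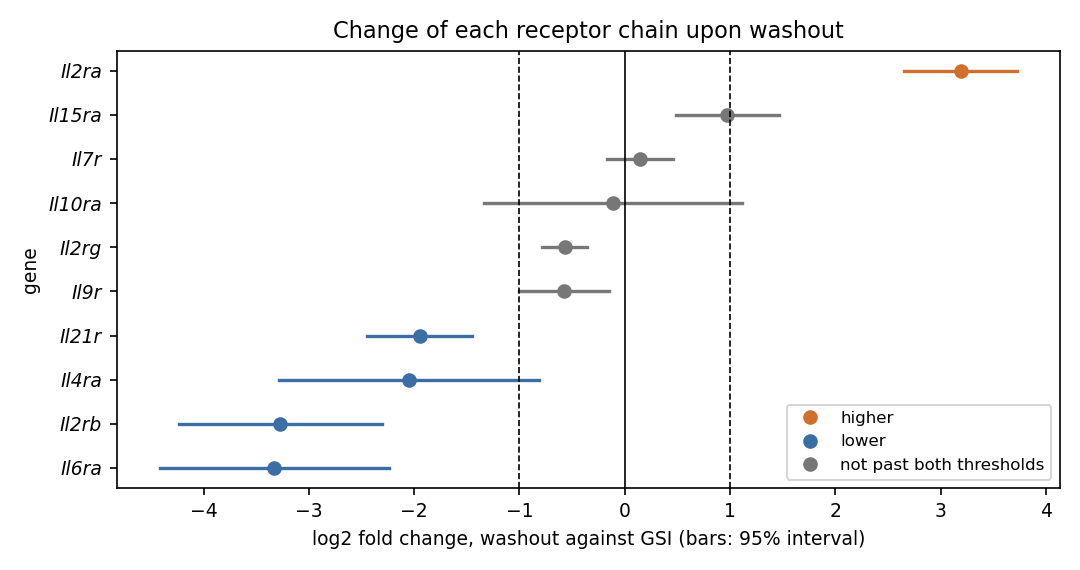
Log2 fold change of each chain, washout against GSI, with bars for the 95% interval from edgeR's fit. Dashed lines mark log2 fold changes of -1 and 1, and colors mark chains past both thresholds, of which Il2ra lies to the right and Il21r, Il4ra, Il2rb and Il6ra lie to the left.

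The chains of the interleukin 2 and interleukin 15 receptors moved in opposite directions. Il2ra (chr2:11564419-11614818 of mm9, plus strand) was at 1.44 and 1.51 CPM in GSI and at 12.4 and 14.6 CPM upon washout, so that both washout libraries lay far above both GSI libraries. Its log2 fold change was 3.19 (SE 0.220), with a 95% interval of 2.66 to 3.72 and an adjusted p-value of 0.000343 by edgeR's quasi-likelihood test. Il2rb (chr15:78310983-78325496, minus strand) was counted with 196 and 57 reads in GSI and 15 and 9 reads upon washout. This corresponded to 6.12 and 3.91 CPM in GSI against 0.441 and 0.669 CPM upon washout, without overlap although the GSI libraries themselves differed. Il2rb fell with a log2 fold change of -3.27 (SE 0.399), with a 95% interval of -4.24 to -2.30 and an adjusted p-value of 0.00123 by the same test. Mean CPM were thus 9.15-fold higher for Il2ra upon washout and 9.04-fold higher for Il2rb in GSI.

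Il15ra (chr2:11626914-11655613, plus strand), the α chain for interleukin 15, was at 5.75 and 6.37 CPM in GSI and at 10.5 and 13.5 CPM upon washout. Both washout libraries were above both GSI libraries, and the log2 fold change of 0.98 (SE 0.203, 95% interval 0.48 to 1.47) came with an adjusted p-value of 0.00866 by edgeR's quasi-likelihood test, so that Il15ra passed the adjusted p-value but lay just inside the fold limit. Without GSI replicate 2 its log2 fold change was 1.06 and without washout replicate 1 it was 1.16, both past the fold limit and the adjusted p-value. Without GSI replicate 1 it was 0.89, at an adjusted p-value of 0.0503, within a range of 1.19e-05 to 0.0503 over the alternatives.

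The γ chain that all of these receptors use was the least variable between replicates. Il2rg (chrX:98459717-98463594, minus strand) was at 136.0 and 137.5 CPM in GSI and at 91.1 and 92.8 CPM upon washout. The washout libraries lay below the GSI libraries with a gap much wider than the difference between replicates. Il2rg had a log2 fold change of -0.57 (SE 0.0864, 95% interval -0.78 to -0.36) at an adjusted p-value of 0.00258 by edgeR's quasi-likelihood test, inside the fold limit. The gene shares its locus and strand with the annotated Gm20489, which has no row in the count table, whereas the other 9 members overlap no annotated gene.

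The chains that pair with the γ chain did not follow one pattern. Il7r (chr15:9435916-9459631, minus strand) was at 25.4 and 28.0 CPM in GSI and at 31.6 and 27.2 CPM upon washout, and the groups overlapped. Its log2 fold change of 0.15 had a 95% interval of -0.16 to 0.46 and an adjusted p-value of 0.373 by edgeR's quasi-likelihood test, so both fold limits lay outside the interval. Its sign turned with the scaling, to -0.05 by total count (adjusted p-value of 0.755) and -0.02 after correction for GC content and length (adjusted p-value of 0.900), within a range of adjusted p-values of 0.168 to 0.900.

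Il9r (chr11:32087541-32100279, minus strand), the ligand-specific chain for interleukin 9, was at 34.8 and 42.1 CPM in GSI and at 22.2 and 29.8 CPM upon washout. The groups did not overlap, but the libraries of each group differed by more than 7 CPM. The log2 fold change was -0.57 (SE 0.176), with an adjusted p-value of 0.0343 by edgeR's quasi-likelihood test, inside the fold limit. Without GSI replicate 2 the adjusted p-value was 0.153 and without washout replicate 1 it was 0.0993, within a range of 1.07e-05 to 0.153 over the alternatives.

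Il21r (chr7:132746943-132777084, plus strand), the ligand-specific chain for interleukin 21, was at 13.8 and 17.7 CPM in GSI and at 4.26 and 3.79 CPM upon washout. It fell by 1.95 on the log2 scale (SE 0.206), with a 95% interval of -2.45 to -1.45 and an adjusted p-value of 0.000792 by edgeR's quasi-likelihood test, and every alternative left it past both thresholds. Among the chains that pair with the γ chain, it was the called one with the most reads, 442 and 259 in GSI and 145 and 51 upon washout.

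Il4ra (chr7:132695785-132722986, plus strand), which serves the receptors for interleukins 4 and 13, was the scarcest member, with 25 and 13 reads in GSI and 5 and 4 reads upon washout. In CPM these were 0.781 and 0.891 in GSI and 0.147 and 0.298 upon washout, close to the limit of detection after washout. Il4ra thus had a log2 fold change of -2.05 (SE 0.510, 95% interval -3.28 to -0.81) with an adjusted p-value of 0.0167 by edgeR's quasi-likelihood test. Il4ra passed the filter, set at 0.453 CPM in 2 libraries, only through the GSI group in which it was higher, and without that filter its log2 fold change was -2.00 at an adjusted p-value of 0.0137. The call was lost with DESeq2 (-1.97, adjusted p-value of 0.128), with glmTreat against a log2 fold change of 1 (0.180), without GSI replicate 1 (adjusted p-value of 0.0761), without GSI replicate 2 (0.0722) and without washout replicate 1 (0.205), within a range of 0.00168 to 0.205.

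The binding chains outside the γ chain family differed from each other. Il6ra (chr3:89673246-89717084, minus strand) was counted with 293 and 80 reads in GSI and with 32 and 5 reads upon washout, or 9.15 and 5.48 CPM against 0.940 and 0.372 CPM. Both washout libraries lay far below the GSI libraries, and replicate 1 was the higher library in both groups. Il6ra fell by 3.33 on the log2 scale (SE 0.450), the lowest value among the members, with a 95% interval of -4.42 to -2.24 and an adjusted p-value of 0.00172 by edgeR's quasi-likelihood test. Mean CPM were 11.2-fold higher in GSI. Like Il2rb, Il6ra passed the filter in both GSI libraries and in only 1 washout library.

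Il10ra (chr9:45061922-45077232, minus strand) was at 9.03 and 14.0 CPM in GSI and at 5.43 and 16.4 CPM upon washout, where the highest and the lowest of the 4 libraries were both washout libraries. The log2 fold change of -0.11 had a 95% interval of -1.34 to 1.12 and an adjusted p-value of 0.869 by edgeR's quasi-likelihood test, so that neither a doubling nor a halving could be told from no change. Single libraries decided its value: without washout replicate 2 it was -1.05 (adjusted p-value of 0.0193), without washout replicate 1 it was 0.54 (0.133) and without GSI replicate 2 it was 0.24 (0.758), within a range of adjusted p-values of 0.0193 to 0.916.

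Set on one scale per exon length, the chains spanned a wide range of levels. RPKM (CPM divided by the kilobases of annotated exon) were highest for Il2rg in every library, at 57.0 and 57.6 in GSI and at 38.2 and 38.9 upon washout. Il2rg made up 65.8% and 63.5% of the summed level of the 10 chains in GSI and 62.5% and 58.8% upon washout, so the common chain exceeded all specific chains together. Il2rg is also the only member with 0 introns longer than the aligner allowed, and the effect of this on the levels was not tested. Il7r followed with 7.93 and 8.73 RPKM in GSI and 9.85 and 8.49 RPKM upon washout, and Il9r with 7.03 and 8.50 RPKM in GSI and 4.48 and 6.01 RPKM upon washout. In GSI these neighbors in the order overlapped, whereas upon washout both Il7r values lay above both Il9r values. The lowest of the 10 in both groups was Il4ra, between 0.029 and 0.174 RPKM. The summed level of the 10 chains was 86.6 and 90.7 RPKM in GSI and 61.1 and 66.1 RPKM upon washout.

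The order of the middle members changed with the washout. By mean RPKM, Il21r ranked 4 of 10 in GSI, at 5.30 and 6.81 RPKM, and 7 of 10 upon washout, at 1.63 and 1.46 RPKM. Il2ra went from rank 9 (0.282 and 0.296 RPKM) to rank 6 (2.43 and 2.86 RPKM), next to Il15ra in rank 5 at 2.54 and 3.27 RPKM, with which it overlapped. Il2rb lost its place above Il2ra, at 2.199 and 1.402 RPKM in GSI and 0.158 and 0.240 RPKM upon washout. Levels depend on the exon model: with the longest transcript in place of all annotated exons, the mean of Il15ra was 2.62 RPKM in GSI and 5.17 RPKM upon washout, its rank upon washout was 4, and it no longer overlapped Il2ra. Il7r and Il9r then exchanged ranks 2 and 3 in GSI, while Il2rg stayed at rank 1 and Il4ra at rank 10 in both groups. The longest of the 18 annotated Il15ra transcripts has only 2 exons, with 2315 bases against 4118 bases of all its exons. Reads were counted over all exons, so the Il15ra values by that length are less certain.

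**Figure D3:**
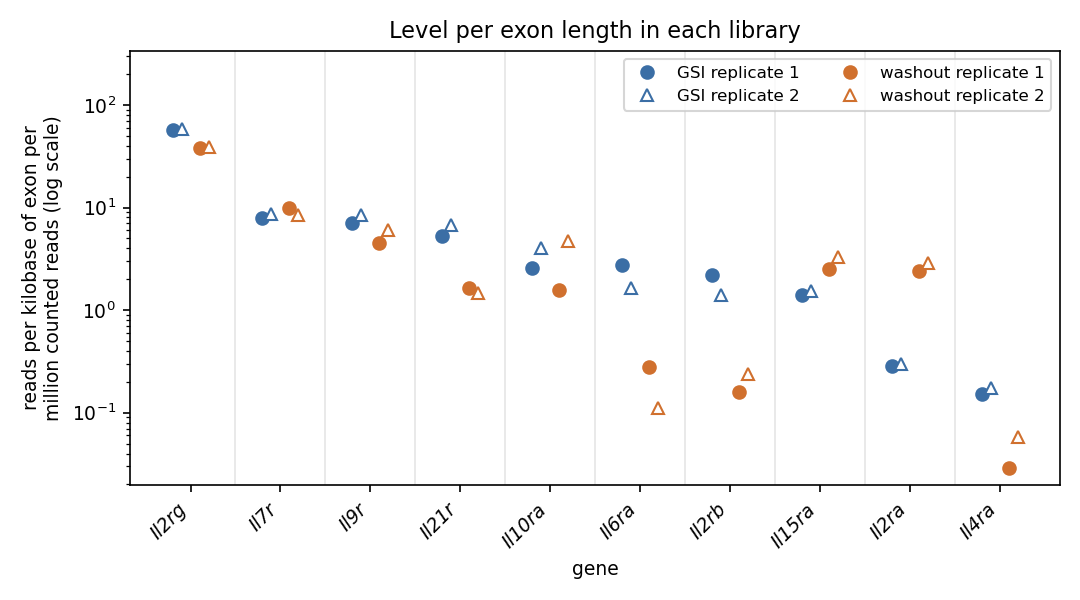
Level of each chain per exon length (CPM per kilobase of exon, log scale) in the 4 libraries, with genes ordered by their mean in GSI, GSI in blue and washout in orange. Il2rg is highest and Il4ra lowest in both groups, while Il2ra moves from below Il2rb to above it.

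Ratios within a library give the balance of chains without any scaling between libraries. Per exon length, Il2ra transcripts stood to Il2rb transcripts at 0.128 and 0.211 in GSI and at 15.4 and 11.9 upon washout, so that the more abundant of these interleukin 2 receptor chains was the β chain in both GSI libraries and the α chain in both washout libraries. The ratio of Il15ra to Il2rb went from 0.635 and 1.10 to 16.1 and 13.6. Relative to Il2ra, Il15ra stood at 4.95 and 5.23 in GSI and at 1.05 and 1.14 upon washout. The ratio of Il2rg to Il7r was 7.19 and 6.59 in GSI and 3.88 and 4.58 upon washout, and that of Il2rg to Il21r was 10.8 and 8.46 in GSI and 23.4 and 26.7 upon washout. The ratio of Il2rg to Il9r, at 8.10 and 6.77 in GSI and 8.52 and 6.47 upon washout, overlapped between groups. With the longest transcript as length, the ratio of Il15ra to Il2ra was 7.65 and 8.08 in GSI and 1.62 and 1.77 upon washout, and that of Il15ra to Il2rb was 1.09 and 1.90 in GSI and 27.6 and 23.4 upon washout, so the side of 1 on which Il15ra stood to Il2rb in GSI replicate 1 depends on the exon model. The limit given above for the longest Il15ra transcript holds here too, and no test was made of these ratios.

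A pair of members lay side by side on chromosome 2 and another pair on chromosome 7. Il2ra and Il15ra are 12095 bases apart on the same strand, with 0 genes of the table between them, and both had higher libraries upon washout. Il4ra and Il21r are 23956 bases apart on the same strand, also with 0 genes between them, and both fell. The genes next to each pair, chosen by position after the values of the members were seen, were taken for comparison. Rbm17, a splicing factor gene 38638 bases from Il2ra, was at 118 and 114 CPM in GSI against 299 and 286 CPM upon washout, and rose with a log2 fold change of 1.33 (adjusted p-value of 0.000343 by edgeR's quasi-likelihood test). Fbxo18, 8586 bases from Il15ra on the other side, had a log2 fold change of -0.44 (adjusted p-value of 0.0145 by the same test). Beside Il4ra and Il21r, Nsmce1 had a log2 fold change of -0.33 (adjusted p-value of 0.0464) and Gtf3c1 one of -0.0039 (adjusted p-value of 0.982), both by the same test and inside the fold limit. Of the 4 flanking genes, Rbm17 was the only one called, where 19.5% of all genes tested were called.

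The remaining chains of the same receptor class were counted from a list of 29 genes, of which 14 were tested. The 15 others had at most 5 reads in any library, and 4 of these had 0 reads in all of them. Of the 14, 1 was called higher and 5 lower, and by the adjusted p-value alone 2 were higher and 10 lower, with a median log2 fold change of -0.71. Over all genes tested, 7.74% were called higher, 11.7% were called lower and 52.5% passed the adjusted p-value alone. The count of called chains fell to 3 without washout replicate 1, to 3 with DESeq2 and to 1 with glmTreat. Il5ra, the binding chain for interleukin 5, was at 0.687 and 0.685 CPM in GSI and rose to 1.73 and 1.86 CPM upon washout (log2 fold change 1.37, adjusted p-value of 0.0147 by edgeR's quasi-likelihood test). This call was lost with DESeq2, with glmTreat, without GSI replicate 1 and without washout replicate 2, where 0 chains of the list were called higher.

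Those called lower included partners of the chains described above. Ifngr1, the binding chain for interferon γ, was at 673 and 542 CPM in GSI and at 199 and 147 CPM upon washout (log2 fold change -1.81, adjusted p-value of 0.000731 by edgeR's quasi-likelihood test). Il11ra1, which like Il6ra signals through the chain encoded by Il6st, had a log2 fold change of -1.86 (adjusted p-value of 0.0082 by the same test). With 44 and 25 reads in GSI and 15 and 5 upon washout, it passed the filter only through the GSI group in which it was higher. It was not tested where at least 10 reads in every library were required. Il10rb, the partner of Il10ra, had a log2 fold change of -1.35 (adjusted p-value of 0.0232 by the same test). Il12rb1 and Il6st completed the 5 and are named after their values were seen. Il12rb1, a chain of the receptors for interleukins 12 and 23, had a log2 fold change of -1.32 (adjusted p-value of 0.00116 by the same test). Il6st, the signaling partner of Il6ra, was at 140 and 145 CPM in GSI and at 66.5 and 75.6 CPM upon washout (log2 fold change -1.01, adjusted p-value of 0.000707 by the same test). Both the binding chain and, narrowly, the signaling chain for interleukin 6 were thus called lower. For interleukin 10 only the partner chain was called, and the difference between these was not tested.

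Transcripts of the ligands were scarce in both groups. Of 10 genes for ligands of these receptors, 6 had 0 reads in every library, and the 9 that were not tested had at most 2 reads in any library, so that no change in them was detectable at this depth. Il10, which encodes interleukin 10, was tested. It had 2 and 0 reads in GSI and 57 and 36 reads upon washout, a ratio of summed rates of 45.6 with an exact 95% counting interval of 12.3 to 382 that leaves out the spread between replicates. Its adjusted p-value was 0.00143 by edgeR's quasi-likelihood test, and its fitted log2 fold change depends on the prior count and is not given. Il10 passed the filter only through the washout group in which it was higher. It was still called without that filter and was not tested where at least 10 reads in every library were required.

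The 4 Janus kinase genes are given by receptor use. Jak2 was at 157 and 129 CPM in GSI and at 57.3 and 48.7 CPM upon washout (log2 fold change -1.43, adjusted p-value of 0.000607 by edgeR's quasi-likelihood test) and was called lower. Tyk2, which like Jak2 serves receptors outside the γ chain family, was at 56.5 and 58.5 CPM in GSI and at 26.4 and 30.2 CPM upon washout (log2 fold change -1.03, adjusted p-value of 0.000848 by the same test), just past the fold limit. Jak3, the kinase bound by the γ chain, was at 85.1 and 79.7 CPM in GSI and at 41.1 and 50.5 CPM upon washout (log2 fold change -0.85, adjusted p-value of 0.00227 by the same test). Jak1, which pairs with the ligand-specific chains, was at 303 and 281 CPM in GSI and at 219 and 197 CPM upon washout (log2 fold change -0.49, adjusted p-value of 0.00981 by the same test). Jak1 and Jak3 passed the adjusted p-value and stayed inside the fold limit.

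Among the 11 Jak and Stat genes together, 0 were called higher and 3 lower, with 1 higher and 7 lower by the adjusted p-value alone and a median log2 fold change of -0.80. Over all genes tested, 11.7% were called lower, 19.5% were called in either direction and 52.5% passed the adjusted p-value alone, beside 3, 3 and 8 of these 11 genes. The third called gene was Stat4, which acts downstream of the interleukin 12 receptor, at 97.1 and 80.1 CPM in GSI against 25.8 and 23.2 CPM upon washout (log2 fold change -1.85, adjusted p-value of 0.000343 by edgeR's quasi-likelihood test). With scaling by total count 5 of the 11 were called, and all 5 were lower. Stat5a and Stat5b, the main STAT genes downstream of interleukins 2, 7 and 15, are named after their values were seen. Their log2 fold changes were 0.17 (adjusted p-value of 0.346) and -0.13 (adjusted p-value of 0.391) by the same test, and the groups overlapped for both. Jak1, Jak3, Tyk2, Stat4, Il11ra1 and Il10rb overlap annotated neighbors, as does the member Il2rg. Because the strand setting and overlap mode of the counting are not stated, the values of all these are less certain than those of the other members.

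Of 9 genes that feed back on this signaling, 7 were tested and 0 were called, with 1 higher and 2 lower by the adjusted p-value alone and a median log2 fold change of -0.12. The count was 2 without GSI replicate 2 and 1 without washout replicate 1. Of 9 genes known to be induced through STATs, 1 was called lower, with 2 higher and 6 lower by the adjusted p-value alone and a median log2 fold change of -0.68. This gene was Ccnd2, which encodes cyclin D2, at 41.3 and 41.6 CPM in GSI against 8.05 and 5.88 CPM upon washout (log2 fold change -2.54, adjusted p-value of 0.000334 by edgeR's quasi-likelihood test). With DESeq2, without the filter or with the GC and length correction the count was 2, in each case 1 higher and 1 lower. With scaling by total count it was also 2, both lower. For comparison, 7 of 8 direct or classic Notch targets were called higher and 0 lower, with a median log2 fold change of 1.89. Hey1 (log2 fold change 3.47), Dtx1 (3.20) and Ptcra (2.37) led that list. Beside the counts of these lists, 7.74% of all genes tested were called higher, 11.7% were called lower and 52.5% passed the adjusted p-value alone.

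Several genes from lists of markers of other blood cells were lower upon washout, like the chains that fell. Mast cell markers summed to 274 and 167 CPM in GSI and to 45.7 and 30.5 CPM upon washout, with Cpa3 and Kit both called lower. The 5 others were at 0 in every library, so these sums hold Cpa3 and Kit alone. Of 6 myeloid markers, which summed to 49.1 and 38.2 CPM in GSI against 5.49 and 4.91 CPM upon washout, Itgam was the only one tested and fell, while Lyz2 and Elane were at 0. The 6 NK or innate markers summed to 6.12 and 4.04 CPM in GSI and to 0.675 and 0.818 CPM upon washout, with Prf1 and Tyrobp called lower and Klrd1 and Gzmb at 0. Tyrobp, with 14 and 12 reads in GSI and 4 and 2 upon washout, passed the filter only through the GSI group in which it was higher. Beside these calls, 11.7% of all genes tested were called lower. B cell markers stayed below 1 CPM in sum in every library, and 0 of 6 were tested, with 3 of them at 0. Whether such cells were present, and any part of them in the lower values of Il2rb, Il4ra, Il21r and Il6ra, was not tested.

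Across tools, scalings, filters and left-out libraries, 5 chains kept their direction and their side of both thresholds wherever they were tested. The log2 fold change ranged from 2.99 to 3.31 for Il2ra, from -3.53 to -2.89 for Il2rb, from -4.29 to -2.91 for Il6ra, from -2.15 to -1.75 for Il21r and from -0.77 to -0.54 for Il2rg. Il9r, which ranged from -0.77 to -0.36, Il15ra, from 0.78 to 1.16, and Il4ra, from -2.44 to -1.45 where tested, kept their direction only. Il2rb, Il4ra and Il6ra could not be tested where at least 10 reads in every library were required.

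**Figure D4:**
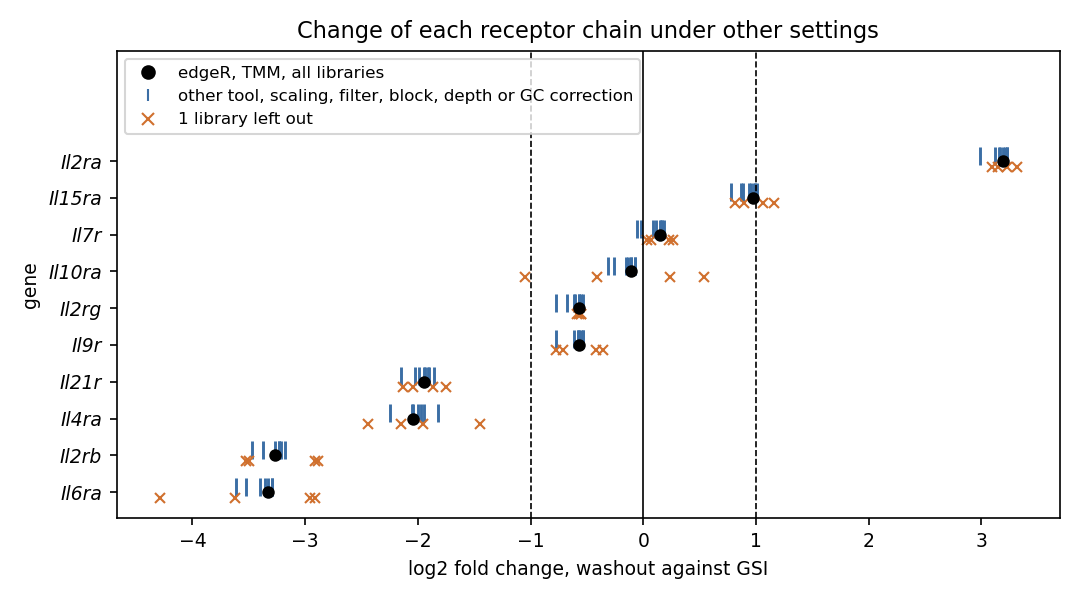
Log2 fold change of each chain, washout against GSI, under every setting, with a black dot for edgeR with TMM and all libraries, blue ticks for another tool, scaling, filter or block, and orange crosses for fits that leave out 1 library. The marks of Il2ra, Il2rb, Il6ra and Il21r stay clear of the dashed lines at -1 and 1, while those of Il7r and Il10ra lie on both sides of 0.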

How the data were processed

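Expression was profiled by RNA-Seq of 4 Beko libraries, prepared with a stranded, ribosomal RNA-depleting kit. The deposited table holds unnormalized counts, 1 column per library. Per the labels and methods, reads were trimmed by the authors, mapped on mm9 by HISAT2 2.2.1 (maximum intron 3000 bases) and counted them with summarizeOverlaps over the iGenomes annotation, and the submitters' processing notes name DESeq2 1.24.0. The strand setting and overlap mode are not given in the sources used here. Reads across longer introns could not be aligned as spliced, alike in all libraries. In the longest transcript this touches 3 of 7 introns in Il2ra and in Il7r, 3 of 9 in Il6ra and 2 of 6 in Il10ra. It touches 1 intron each in Il2rb, Il4ra, Il9r, Il15ra and Il21r, and 0 in Il2rg.

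Groups followed the labels. The whole table was fitted with edgeR 4.0.16 in R 4.3.3 (filterByExpr, TMM, estimateDisp, quasi-likelihood test, no covariate), and p-values were Benjamini-Hochberg adjusted over the 12266 genes tested. TMM factors lay between 0.930 and 1.08. SE was derived from the log2 fold change and the root of F, and intervals used the fit's degrees of freedom. The members and lists were chosen with earlier results of these data known. Named genes were every member, every Jak gene and up to 3 called genes per direction in each list. Positions and exon lengths came from GENCODE vM1 on mm9, where 20641 of the 24391 symbols matched 1 gene. Replicates differed by more than sampling noise (chi-square per degree of freedom 17.2 and 27.7), so none were merged in any fit. Only the ratio given for Il10 sums the reads of replicates. Alternatives were DESeq2 1.42.0, RLE or total-count scaling, other filters, a replicate block, thinning to 13716199 reads, a GC and length correction on 10962 genes, glmTreat, the adjusted p-value alone and leaving out each library. The scripts were tested on simulated data. Protein sequences were not used here.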

Additional observations from a re-analysis of the deposited data

How the results depend on the processing

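Of 117 member fold changes recomputed under the alternatives, 105 kept their direction and their call past both thresholds or not, 4 turned direction, 4 newly passed both and 4 no longer did. Among the 105, 3 crossed the adjusted p-value alone (Il9r without GSI replicate 2 or washout replicate 1, and Il15ra without GSI replicate 1). The count of called chains was 5, ranged from 4 to 6 when 1 library was left out, was 8 by the adjusted p-value alone, and was 2 of 7 tested with at least 10 reads in every library, where Il2rb, Il4ra and Il6ra leave the test. Il7r turned to -0.0518 with scaling by total count and to -0.0197 with the GC and length correction. Il10ra ranged from -1.05 to 0.54 when 1 library was left out, with 0.24 without GSI replicate 2. Il4ra was -1.97 and no longer passed with DESeq2, and ranged from -2.44 to -1.45 when 1 library was left out. Il15ra was 1.01 and passed without a filter, and ranged from 0.81 to 1.16 when 1 library was left out. The causes were not tested. Over all genes, 2387 were called (950 higher, 1437 lower), 6435 by the adjusted p-value alone, 809 with glmTreat, and 1999 to 2419 when 1 library was left out. Scaling by total count moved the median log2 fold change of all genes to -0.21 and the split to 587 higher and 1961 lower, and log2 fold changes on that scale are read relative to this shift. Fits without a library assume that the lone library of its group varies like the others.

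With the replicate number as a block, 5 chains were called (1 higher, 4 lower), 2557 genes in all, and the value of Il10ra was -0.26 (adjusted p-value of 0.206 by edgeR's quasi-likelihood test). Differences between replicates 1 and 2 of both groups correlated at 0.497 across genes, but with 2 pairs and no label of a shared batch the number is not taken to pair the samples. The block changed no call of a member. Levels per exon length moved in 6 of 20 values with the longest transcript as length, and list counts moved by over 1.5 times in 21 of 84 refits. Thinning every library to the smallest changed no call of a member.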
